A study of Mus musculus with 12 samples.

Results

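The clustered protocadherins are cell-surface cadherins encoded side by side on mouse chromosome 18 in the alpha, beta and gamma gene clusters. Of 22878 gene symbols in the deposited RNA-seq tables, 58 belonged to these clusters: 14 alpha genes, 22 beta genes and 22 gamma genes (12 of A type, 7 of B type and 3 of C type). They were taken by symbol, with the longest transcript model of each. Polyadenylated RNA was sequenced for 3 genotypes, in mouse embryonic stem (ES) cells and in their differentiated progeny. DKO denotes the libraries labelled as lacking both SUV420H1 and SUV420H2, KO those labelled as lacking SUV420H2, and WT the wild type. SUV420H1 and SUV420H2 are the enzymes that add the further methyl groups to lysine 20 of histone H4, and SUV420H2 writes the trimethyl mark found in heterochromatin. Each genotype had 2 ES libraries, grown on gelatin with 1.5 µM of a GSK3 inhibitor over several passages to lose the feeder cells, and 1 library each at day 8 and day 12 of differentiation. These make 12 libraries. Not given in the labels are the knockout alleles, the differentiation protocol and whether a genotype is 1 clone. They do not say that the ES replicates came from separate cultures, so p-values measure the spread between these libraries, which may be technical.

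Clustered protocadherins are best known from neurons. There, each alpha, beta, gamma A and gamma B gene has its own promoter, and a cell switches on a small and partly random set of them, helped by CTCF and cohesin loops and opposed by DNA methylation. The proteins bind only copies of themselves on a neighbouring cell, so that the set gives a neuron a surface identity used in self-avoidance and in survival. The C-type genes (Pcdhac1, Pcdhac2, Pcdhgc3, Pcdhgc4 and Pcdhgc5) lie at the end of their clusters, differ in sequence from the others and are less subject to random choice. Alpha and gamma transcripts join 1 variable exon to constant exons shared by the whole cluster, whereas each beta gene is a single exon with its own coding sequence.

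That structure sets what a read count means here. Every alpha row and every gamma row of the tables includes the shared constant exons, so whole rows of a cluster move together and count as about 1 measurement, not 14 or 22. In each library the lowest row of a cluster was therefore taken as the reads on the shared exons plus those of the least-used variable exon. The reads of a row above that level, here called excess reads, are a lower bound on reads from the gene's own exon. A gene in the lowest row has no excess by construction. Beta counts need no such step.

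The libraries held 22542052 to 26677968 reads in genes. The targeted gene Suv420h2 stood at 5.59 and 3.37 RPKM (read counts scaled for model length and library size) in DKO ES cells, 4.41 and 3.95 RPKM in KO ES cells, and 28.58 and 25.76 RPKM in WT ES cells. Suv420h1 was not lower in the libraries labelled DKO, at 5.30 and 5.77 RPKM, against 3.41 and 3.61 RPKM in KO and 3.78 and 4.18 RPKM in WT ES cells, and a whole-gene count cannot show whether part of that gene is missing. The 8 pluripotency markers summed to 1513 to 1852 RPKM in DKO, 2420 to 2515 RPKM in KO and 2845 to 2905 RPKM in WT ES libraries. The markers did not move alike. Nanog, Dppa5a and Tdgf1 were higher in KO than in WT ES cells, while Zfp42, Esrrb, Klf4 and Utf1 were lower and Pou5f1 overlapped. Zfp42 stood at 66.9 and 76.2 RPKM in KO and 753 and 707 RPKM in WT. In DKO, Esrrb and Klf4 were higher than in WT and the other 6 were lower. After differentiation the 8 markers summed to 1112 to 2258 RPKM in DKO, 741 to 1594 RPKM in KO and 215 to 230 RPKM in WT libraries, several times lower in WT than in the mutants. Klf4 was an exception: at WT day 12 it made up 118 of 215 RPKM, above its 6.86 to 63.1 RPKM in the mutant differentiated libraries. In such bulk samples, fewer cells of a type and less RNA per cell cannot be told apart.

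The gamma cluster was by far the most abundant. Its rows ranged from 9.33 to 70.0 RPKM over genes and libraries, the alpha rows from 0.066 to 3.55 RPKM, and the highest beta value was 2.38 RPKM. All 14 alpha and all 22 gamma rows had reads in every library, against 3 of 22 beta genes (Pcdhb2, Pcdhb3 and Pcdhb17). A minimum of 1 RPKM, to be reached by 2 libraries of a fit or more, passed all 22 gamma rows in every fit. It passed the 14 alpha rows only in fits that included differentiated cells, and it passed no beta gene. Beta genes, and alpha genes in ES cells, were therefore tested without that filter.

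Gamma transcripts in ES cells were highest in DKO and lowest in KO. On the shared gamma exons, the lowest row held 3786 and 3367 reads in DKO, 2182 and 2436 in KO, and 2974 and 2969 in WT ES libraries. No library of a genotype overlapped another genotype. All 22 whole rows were higher in DKO than in WT (edgeR quasi-likelihood test, Benjamini-Hochberg adjusted p under 0.05), with a median log2 fold change of 0.39, where 32.2% of 12046 tested genes were higher and the median of all genes was -0.01. All 22 were also higher in DKO than in KO, with a median of 0.71, beside 33.2% of all genes. Between KO and WT the median was -0.30, and only Pcdhgc3 and Pcdhga11 passed as lower, where 19.2% of all genes were lower. Tested without the RPKM filter, 21 rows passed in KO over WT. These whole-row counts repeat the shared exons. That of DKO over WT fell to 1 row without either WT ES library and to 12 rows without DKO ES replicate 1. That of KO over WT was 0 without WT ES replicate 1, WT ES replicate 2 or KO ES replicate 1, and 1 without KO ES replicate 2. It was 22 without either DKO library, since all ES libraries share 1 estimate of the spread. In 1 fit of all 12 libraries the counts were 0 (DKO over WT), 1 (DKO over KO) and 0 (KO over WT), and the shares of all genes called in that fit are not given.

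The gamma rows with the highest mean level after Pcdhgc3 were Pcdhgb7 and Pcdhga10. Pcdhgb7 stood at 21.29 and 16.34 RPKM in DKO, 10.47 and 11.95 RPKM in KO, and 14.63 and 14.20 RPKM in WT ES cells. Pcdhga10 stood at 21.60 and 16.06 RPKM in DKO, 10.41 and 11.94 RPKM in KO, and 14.60 and 14.05 RPKM in WT ES cells. Both rows contain the shared exons, and they differed little.

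**Figure D1:**
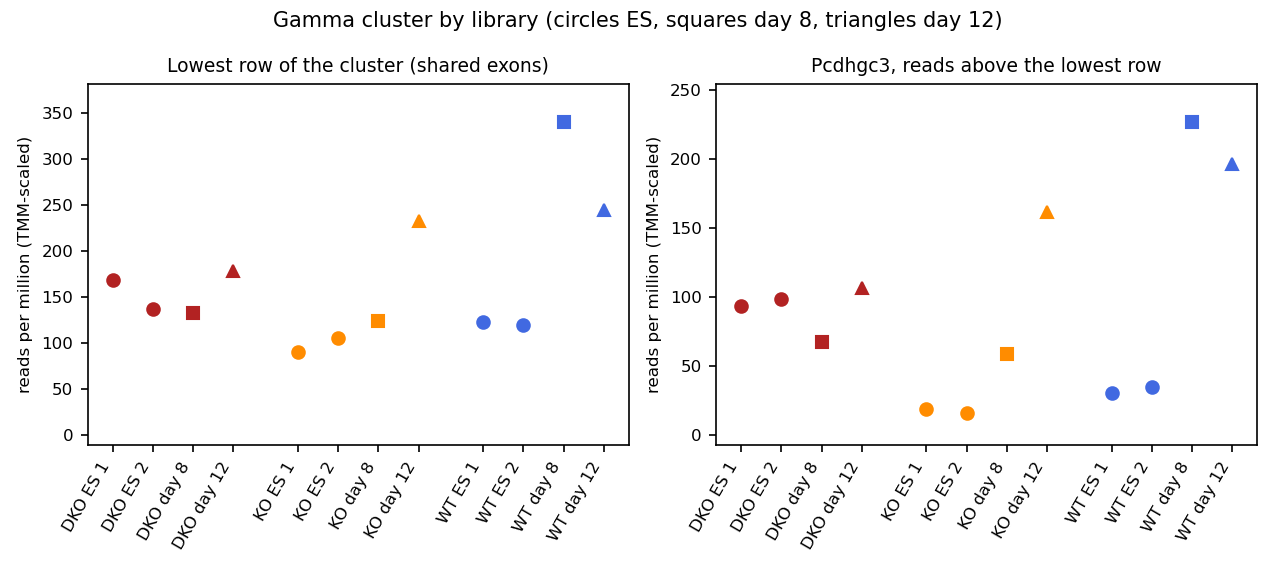
CPM (read counts scaled to library size, here by TMM, the trimmed mean of M-values) in each of the 12 libraries, by genotype and stage, for the lowest row of the gamma cluster, which holds the shared constant exons, and for the excess reads of Pcdhgc3; each point is 1 library. In ES cells both measures are highest in DKO and lowest in KO, and in differentiated cells WT day 8 is the highest library.

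Pcdhgc3 held more excess reads than any other gamma gene in every library, with 36.0% to 67.4% of the gamma total. It is the C-type gamma protein known to inhibit Wnt signalling by binding Axin1. Its level was 30.22 and 25.51 RPKM in DKO, 12.09 and 13.25 RPKM in KO, and 17.25 and 17.24 RPKM in WT ES cells. Its excess reads numbered 2099 and 2434 in DKO, 466 and 380 in KO, and 746 and 878 in WT ES libraries, with a wide gap between each pair of genotypes. The mean TMM-scaled CPM was 96.3 ± 3.72 in DKO, 17.9 ± 2.04 in KO and 33.1 ± 3.12 in WT (SD, n = 2 libraries each). The log2 fold change of the excess was 1.53 ± 0.15 (SE) for DKO over WT (edgeR adjusted p = 3.7e-12), 2.44 ± 0.15 for DKO over KO (adjusted p = 3.9e-18) and -0.91 ± 0.15 for KO over WT (adjusted p = 3.1e-06). Each of these calls held when any single ES library was left out. On the whole row, where the shared exons are counted too, the log2 fold change was 0.70 ± 0.11 for DKO over WT (edgeR adjusted p = 0.00018), 1.10 ± 0.11 for DKO over KO (adjusted p = 3.8e-06) and -0.40 ± 0.11 for KO over WT (adjusted p = 0.013). The call of the whole row in KO against WT was lost without either WT ES library or without KO ES replicate 1 (largest adjusted p = 0.11).

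As a sum, the gamma A and B genes, the counterparts of the randomly chosen genes of neurons, followed the same order. Summed over these 19 genes, excess reads came to a TMM-scaled CPM of 156 and 150 in DKO, 31.3 and 20.2 in KO, and 53.8 and 52.4 in WT ES cells. In DKO over WT, 10 of 12 A genes and 5 of 7 B genes rose in excess reads, as did Pcdhgc3, 16 of 22 gamma genes in all, where 23.9% of the 18751 genes tested rose. Their median over the 22 genes was 1.79 on the log2 scale, and that of all genes was 0. In DKO over KO, all 12 A genes, 5 B genes and Pcdhgc3 rose, 18 of 22, beside 25.2% of all genes, with a median of 3.22. In KO over WT, 7 A genes, 3 B genes and Pcdhgc3 fell, 11 of 22, beside 15.5% of all genes, with a median of -1.32. These counts include genes whose excess is 0 by construction in a library compared: Pcdhga6 in DKO over WT, Pcdhga6 and Pcdhga9 in DKO over KO, and Pcdhga9 in KO over WT. The others number 15, 16 and 10. Leaving out any single ES library moved these counts to 16 to 17, 17 to 19 and 8 to 12 genes. In 1 fit of all 12 libraries, whose spread includes the differentiated cells, they were 9, 17 and 3, and no beta gene was called in KO over WT (3 had an unadjusted p under 0.05). The shares of all genes called in that fit are not given, so these counts are not read further. In that fit Pcdhgc3 excess still passed in DKO over WT and over KO (edgeR adjusted p = 0.0052 and 4.7e-04) but not in KO over WT (adjusted p = 0.099).

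Pcdhgb6 showed the largest rise in DKO over WT among the gamma genes with excess reads in both genotypes. It had 211 and 243 excess reads in DKO, 6 and 9 in KO, and 25 and 17 in WT ES libraries. The log2 fold change was 3.47 ± 0.34 (SE) for DKO over WT (edgeR adjusted p = 1e-11), and in KO over WT it was -1.44 ± 0.47 (adjusted p = 0.014). Pcdhga8 had 200 and 193 excess reads in DKO, 23 and 22 in KO, and 41 and 24 in WT libraries. It rose by 2.64 ± 0.33 in DKO over WT (edgeR adjusted p = 4.8e-09), while KO and WT did not separate by the test (-0.50 ± 0.38, adjusted p = 0.35). Pcdhgb5 had 203 and 314 in DKO, 30 and 32 in KO, and 59 and 42 in WT libraries, a rise of 2.39 ± 0.29 in DKO over WT (edgeR adjusted p = 2e-09).

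Other gamma genes stood out in KO. Pcdhga7 had 231 and 235 excess reads in DKO, 16 and 4 in KO, and 76 and 87 in WT ES libraries, and fell by 2.99 on the log2 scale in KO over WT (SE 0.39, edgeR adjusted p = 3.2e-08). Pcdhga2, with 195 and 195 in DKO, 7 and 14 in KO, and 45 and 57 in WT, fell by 2.23 (SE 0.41, edgeR adjusted p = 1.8e-05). The 3 genotypes did not overlap at either gene. Pcdhga11 departed from the common order: it had 302 and 364 excess reads in DKO and 303 and 358 in WT ES libraries, against 126 and 86 in KO. It fell by 1.61 in KO over WT (SE 0.22, edgeR adjusted p = 5.9e-08), and its difference between DKO and WT was 0.05 ± 0.20 (adjusted p = 0.87). Pcdhga12 (0.31 ± 0.25) and Pcdhgb8 (0.60 ± 0.46) did not pass in DKO over WT either, with edgeR adjusted p of 0.33 and 0.30. Pcdhgb8 also departed from the common order, being highest in KO: it had 37 and 46 excess reads in DKO, 47 and 52 in KO, and 40 and 16 in WT ES libraries. Pcdhgb4 was called lower in DKO because its row was the lowest there, so that its excess was 0 by construction.

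**Figure D2:**
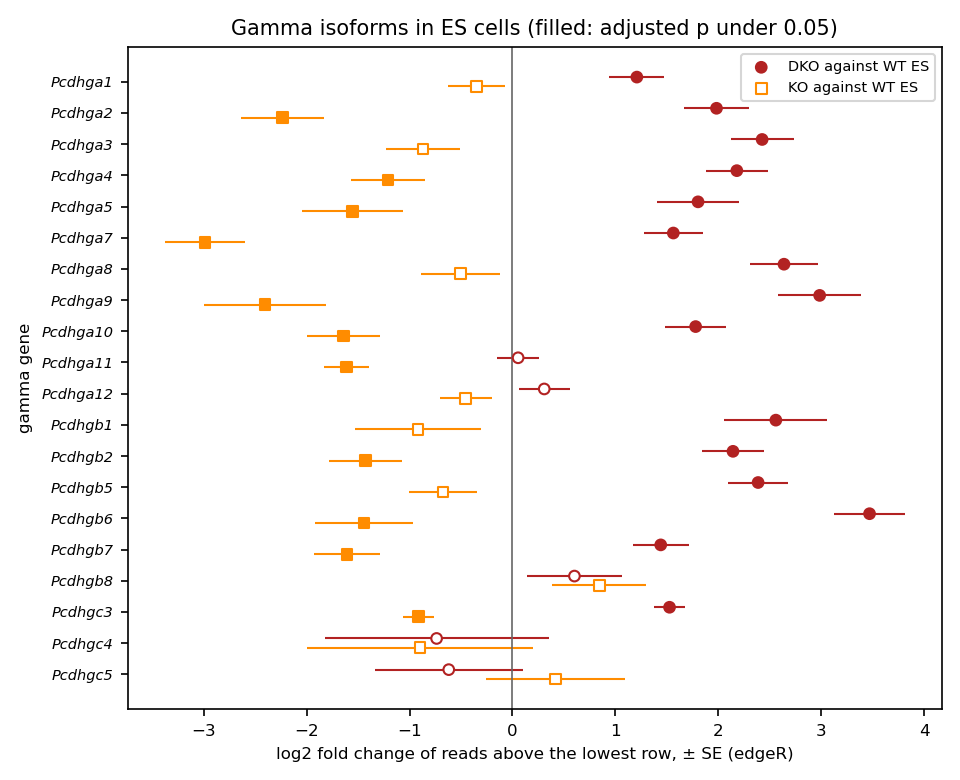
Log2 fold change (± SE) of excess reads in ES cells, DKO over WT and KO over WT, for 20 gamma genes; Pcdhga6 and Pcdhgb4 are not drawn because a genotype has no excess reads there, and filled points have an edgeR adjusted p under 0.05. Most A and B genes and Pcdhgc3 lie above 0 for DKO and below 0 for KO, while Pcdhga11 lies near 0 for DKO and Pcdhgc4 and Pcdhgc5 have wide errors.

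**Figure D3:**
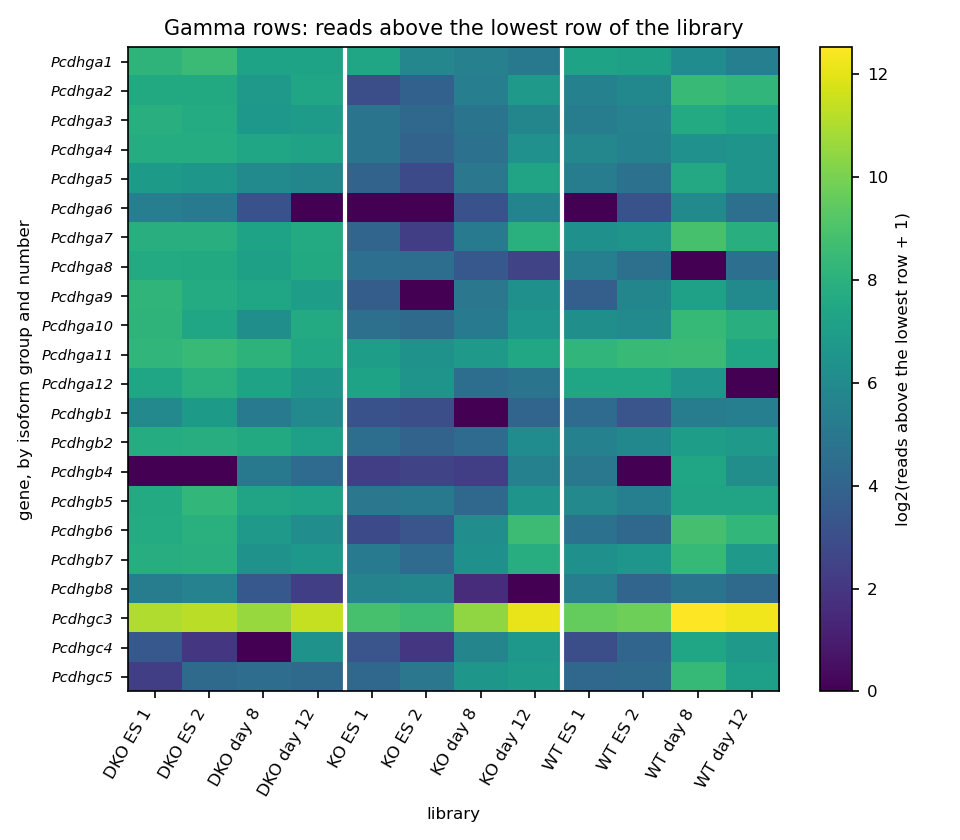
Excess reads of the 22 gamma genes (rows) in the 12 libraries (columns), coloured as log2 of excess reads + 1. Pcdhgc3 is the strongest row in every library, and the DKO ES columns are stronger than the KO and WT ES columns across most A and B genes. Pcdhgc4 and Pcdhgc5 have at most 16 and 30 excess reads in an ES library.

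The other C-type gamma genes had few excess reads in ES cells, a lower bound on their own signal. Pcdhgc4 is needed for the survival of cortical interneurons, and Pcdhgc5 is a gene of the maturing brain. Excess reads of Pcdhgc4 were 10 and 3 in DKO, 9 and 3 in KO, and 7 and 16 in WT ES libraries. Those of Pcdhgc5 were 4 and 19 in DKO, 17 and 30 in KO, and 17 and 19 in WT libraries. The genotypes overlapped at Pcdhgc4, and none of the comparisons passed at either gene (smallest edgeR adjusted p = 0.23). At their whole rows, which passed as higher in DKO, they read the shared exons: Pcdhgc4 stood at 18.19 and 13.82 RPKM in DKO, 9.33 and 10.71 RPKM in KO, and 12.89 and 12.48 RPKM in WT ES cells.

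The beta genes, which share no exon and so are measured one by one, had the same order of genotypes. All 22 together held 309 and 369 reads in DKO, 36 and 25 in KO, and 114 and 153 in WT ES libraries. As CPM of the reads in genes, the sum was 13.3 and 14.3 in DKO, 1.51 and 1.08 in KO, and 4.77 and 6.19 in WT. Reads were counted on 18 and 16 of the 22 genes in DKO, on 7 and 7 in KO, and on 13 and 11 in WT. Of the 19 beta genes with a read in ES cells, 3 rose in DKO over WT and none fell, where 23.9% of 18752 genes tested without a filter rose. In DKO over KO 8 rose, beside 25.2% of all genes. In KO over WT 5 fell, beside 15.5% of all genes. The 3 of 19 in DKO over WT is a smaller share than that of all genes, and the counts behind these calls are low. Without KO ES replicate 2 the KO over WT count was 3 and the DKO over KO count was 5.

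Pcdhb22 was the most abundant beta gene in DKO. It had 85 and 140 reads in DKO, 0 and 0 in KO, and 14 and 8 in WT ES libraries. Its log2 fold change in DKO over WT was 3.37 ± 0.48 (SE, edgeR adjusted p = 8.8e-08). Against the 0 reads of KO, taken as a floor of 3 reads per library, it was at least 37.2-fold higher in DKO (edgeR adjusted p = 2.7e-12) and at least 3.54-fold lower in KO than in WT (adjusted p = 1.1e-04). These 3 calls held when any single ES library was left out. Pcdhb17 led in KO and WT instead, with 39 and 42 reads in DKO, 14 and 11 in KO, and 45 and 38 in WT ES libraries. It fell by 1.70 in KO over WT (SE 0.52, edgeR adjusted p = 0.0083), while DKO and WT overlapped.

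Pcdhb14 had 51 and 47 reads in DKO, 4 and 2 in KO, and 18 and 26 in WT ES libraries. It fell by 2.80 in KO over WT (SE 0.73, edgeR adjusted p = 0.0019) and was 4.0 ± 0.69 higher in DKO than in KO (adjusted p = 3e-06), and its 1.20 in DKO over WT did not pass (adjusted p = 0.060). Pcdhb18 had 18 and 14 reads in DKO, none in KO, and 14 and 13 in WT libraries. It was at least 4.33-fold lower in KO than in WT (edgeR adjusted p = 0.0024). Pcdhb20 had 30 and 14 reads in DKO, 2 and 0 in KO, and none in WT libraries, at least 7.79-fold higher in DKO than in WT (edgeR adjusted p = 0.0009). Pcdhb16, with 14 and 24 reads in DKO, none in KO, and 2 and 2 in WT, rose in DKO over WT (edgeR adjusted p = 0.031). Most beta reads lay on the later-numbered genes: Pcdhb12 to Pcdhb22 held 251 and 315 reads in DKO, 22 and 19 in KO, and 101 and 87 in WT ES libraries, whereas Pcdhb1 to Pcdhb11 held 58 and 54 in DKO, 14 and 6 in KO, and 13 and 66 in WT. Of the beta values above 0, 132 of 169 (78.1%) were even numbers, against 56.5% of all gene values of 1 to 20 reads. How reads were paired in counting is not given, and its part in these values was not tested.

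**Figure D4:**
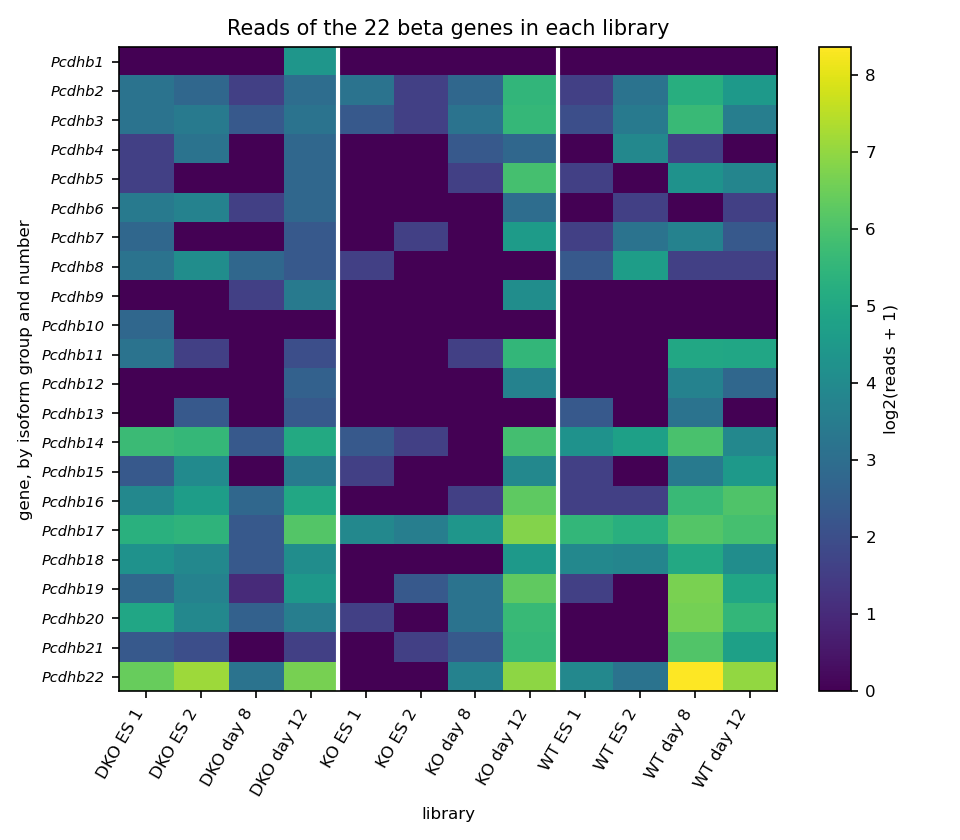
Reads of the 22 beta genes (rows) in the 12 libraries (columns), coloured as log2 of reads + 1. The KO ES columns are the emptiest, Pcdhb17 has reads in every library, and Pcdhb22 is strong in DKO ES cells and at WT day 8.

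The alpha cluster differed from the other clusters in its order of genotypes. Its lowest row held 41 and 49 reads in DKO, 46 and 52 in KO, and 16 and 28 in WT ES libraries. Here WT was lowest and DKO and KO overlapped. As whole rows, 11 of 14 alpha genes were higher in DKO than in WT (median 1.16), beside 23.9% of all genes, and 7 were higher in KO than in WT (median 1.07), beside 18.2%. None passed in DKO against KO by edgeR or DESeq2 (the DESeq2 share of all genes was 48.4%), nor at an unadjusted p under 0.05. With limma, whose share of all genes is not given, 1 row was called. These counts rest on few reads: without WT ES replicate 1 they were 1 and 0, and the KO count was 1 without KO ES replicate 1 and 0 without KO ES replicate 2. The DKO count was 7 without DKO ES replicate 2. Pcdha3, for example, had 52 and 74 reads in DKO, 52 and 54 in KO, and 16 and 28 in WT ES libraries, with a log2 fold change of 1.55 ± 0.42 for DKO over WT (edgeR adjusted p = 0.0020) and 1.30 ± 0.43 for KO over WT (adjusted p = 0.015).

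Excess reads of Pcdhac2 were highest in KO, and those of Pcdha1 to Pcdha12 were highest in DKO. Pcdhac2 is the C-type alpha gene needed for the spacing of serotonergic axons. It had 12 and 22 excess reads in DKO, 40 and 50 in KO, and 10 and 21 in WT ES libraries. It was 1.56 ± 0.56 higher in KO than in WT (edgeR adjusted p = 0.025), where 18.1% of all genes were higher, and 1.39 lower in DKO than in KO (SE 0.55, adjusted p = 0.030), where 27.1% were lower, while DKO and WT overlapped (0.17, adjusted p = 0.86). The genes Pcdha1 to Pcdha12 together held 164 and 189 excess reads in DKO, 19 and 8 in KO, and 47 and 42 in WT libraries, an order like that of gamma and beta. Of the 13 alpha genes with an excess read, 8 were higher in DKO than in KO, and 5 were higher in DKO than in WT. The shares of all genes were 25.2% and 23.9%. Of these calls, 7 of the 8 and 4 of the 5 involve a gene at 0 by construction in a KO or WT ES library. Pcdha12, for example, had 23 and 42 excess reads in DKO, 0 and 2 in KO, and 2 and 12 in WT libraries (DKO over WT 2.23 ± 0.84, edgeR adjusted p = 0.024). Pcdha4 had 34 and 31 in DKO, 5 and 4 in KO, and 20 and 20 in WT, and fell by 2.09 in KO over WT (SE 0.75, edgeR adjusted p = 0.025). In KO over WT the call of Pcdha4 was lost without either WT or either KO ES library, and that of Pcdhac2 without WT ES replicate 1 or either KO ES library. In DKO over WT the count was 2 without WT ES replicate 2 or DKO ES replicate 1, and in DKO over KO it was 4 without KO ES replicate 1 and 3 without KO ES replicate 2. Pcdhac1, the other C-type alpha gene, was among the lowest rows in 8 of 12 libraries, with at most 4 excess reads in any library.

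**Figure D5:**
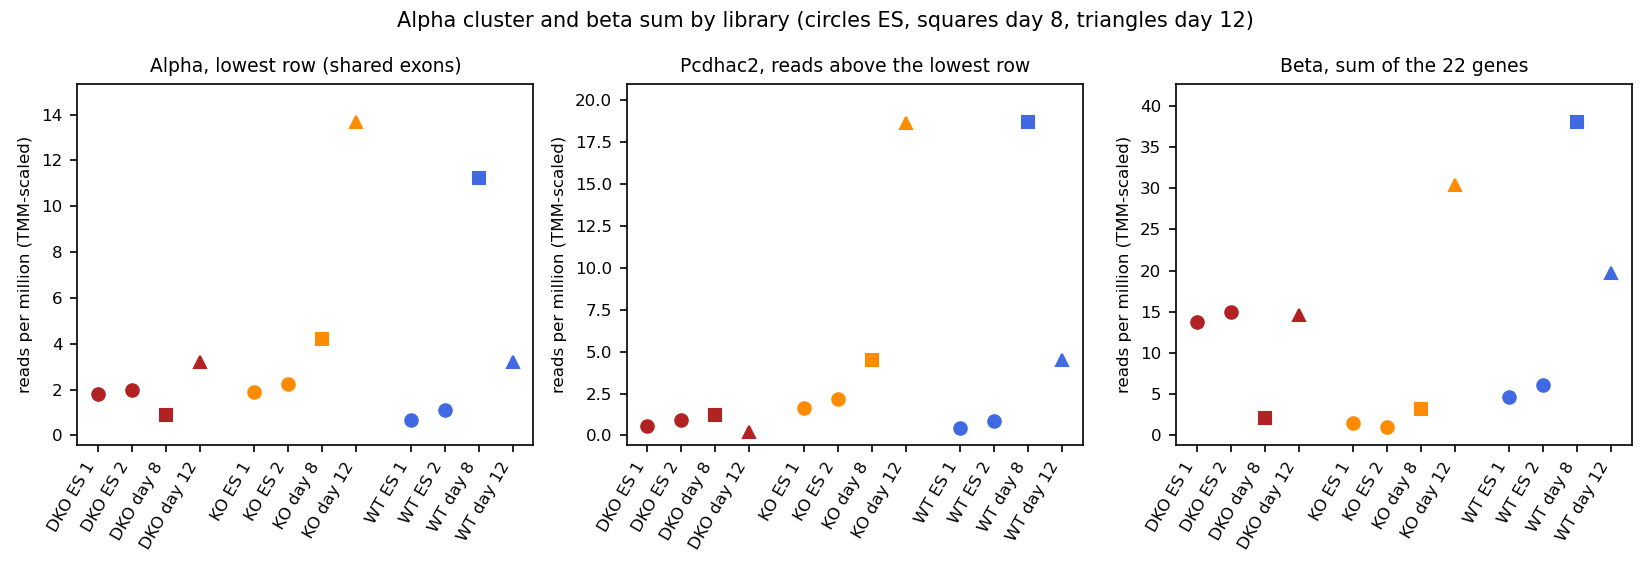
TMM-scaled CPM in each of the 12 libraries, by genotype and stage, for the lowest row of the alpha cluster, the excess reads of Pcdhac2 and the summed reads of the 22 beta genes; each point is 1 library. The lowest alpha row is highest in KO day 12 and WT day 8, and the beta sum is lowest in the KO ES libraries.

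On differentiation, the C-type gamma genes and Pcdhac2 rose in a fit of all genotypes, while the DKO means of Pcdhgc3 and Pcdhac2 changed little. All 6 differentiated libraries were set against the 6 ES libraries with genotype in the fit, and the 2 days, with 1 library each per genotype, stood in for replicates. Every gamma row was higher in differentiated cells in this fit (median 0.71), where 20.1% of 13433 genes were. The mean TMM-scaled CPM of the whole Pcdhgc3 row was 249 in ES and 243 in differentiated cells in DKO. It was 116 and 288 in KO, and 154 and 504 in WT. Pcdhgc3 stood at 21.88 RPKM (day 8) and 36.44 RPKM (day 12) in DKO, 21.58 and 50.04 RPKM in KO, and 69.97 and 53.17 RPKM in WT, with a log2 fold change of 1.0 ± 0.30 over ES cells (edgeR adjusted p = 0.027). The whole-row count was 0 without any 1 of WT ES replicate 1, WT ES replicate 2, KO ES replicate 1, KO ES replicate 2, WT day 8 or KO day 12, 1 without WT day 12 and 13 without DKO day 12.

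In excess reads, 4 gamma genes rose and 2 fell, where 14.8% of all genes rose and 10.1% fell. All 3 C-type genes were among those that rose. Pcdhgc3 had 1566 and 2744 excess reads at days 8 and 12 in DKO, 1397 and 4432 in KO, and 5885 and 4944 in WT, and rose by 1.75 ± 0.48 over ES cells (edgeR adjusted p = 0.022). Pcdhgc4 had 0 and 86 in DKO, 51 and 103 in KO, and 170 and 107 in WT, a rise of 3.18 ± 0.84 (edgeR adjusted p = 0.019). Pcdhgc5 had 21 and 19 in DKO, 98 and 117 in KO, and 336 and 134 in WT, a rise of 2.16 ± 0.55 (edgeR adjusted p = 0.016). In the DKO libraries Pcdhgc5 lay within or just above the range of its ES libraries. Pcdhga1 fell by 1.44 (SE 0.30, edgeR adjusted p = 0.0068). The 2 further calls, Pcdhgb4 as higher (edgeR adjusted p = 0.034) and Pcdhgb8 as lower (adjusted p = 0.046), involve an excess of 0 by construction, for Pcdhgb4 in WT ES replicate 2 and both DKO ES libraries and for Pcdhgb8 in KO day 12, and no size is given. The 0 of Pcdhgc4 at DKO day 8 is of the same kind. Pcdhga1 had 151 and 155 excess reads in DKO, 43 and 32 in KO, and 67 and 42 in WT differentiated libraries, against 284 and 366 in DKO, 169 and 55 in KO, and 153 and 136 in WT ES libraries. The count of 6 genes was 2 without WT ES replicate 1, 3 without either KO ES library, and 10 without DKO day 8.

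Pcdhgc3 was also set against the shared exons in each library. Its excess per kilobase, as a percentage of the reads per kilobase of the shared exons, was 41.9% and 49.5% in DKO, 39.1% and 57.3% in KO, and 55.0% and 66.5% in WT differentiated libraries. In ES cells it was 45.8% and 59.7% in DKO, 17.6% and 12.9% in KO, and 20.7% and 24.4% in WT. Both differentiated libraries lay above both ES libraries in KO and in WT, and the stages overlapped in DKO. Summed over all gamma genes, such percentages were 124% and 153% in the DKO ES libraries. They were 29.8% to 61.8% in KO and WT ES libraries and 60.2% to 102% in differentiated libraries. Each transcript has a single variable exon, so at even coverage the sum could not exceed the shared-exon level. The measure is therefore not a share of transcripts, least of all in DKO ES cells, and it was not tested.

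Of the alpha genes, 7 of 14 whole rows rose on differentiation and none fell, where 20.1% of all genes rose. These rows reached 1 RPKM only in WT day 8 and KO day 12. They thus passed the filter through differentiated libraries where they are high, and this count is not read further. Without the filter, 2 of the 12 rows Pcdha1 to Pcdha12 and 1 of 2 C-type rows were called higher, where edgeR called 25.0% of all genes in either direction. Pcdhac2 had 50 and 88 reads at days 8 and 12 in DKO, 208 and 887 in KO, and 778 and 195 in WT, against 53 and 71 in DKO, 86 and 102 in KO, and 26 and 49 in WT ES libraries. It rose by 2.07 ± 0.66 (edgeR adjusted p = 0.034), and in excess reads, where it was the only alpha gene called, by 2.34 ± 0.79 (adjusted p = 0.048). It held 38.7% and 2.71% of the alpha excess reads in DKO, 77.1% and 90.5% in KO, and 91.4% and 86.4% in WT differentiated libraries. The whole-row count of 7 was 0 without any 1 of the 4 WT and KO ES libraries, 3 without WT day 12, 1 without DKO day 12 and 14 without DKO day 8. No beta gene was called by edgeR in this comparison, 6 of 22 had an unadjusted p under 0.05, and DESeq2 called 7 higher and 1 lower, where edgeR called 25.0% and DESeq2 35.7% of all genes. Beta reads summed to 48 and 374 in DKO, 76 and 835 in KO, and 988 and 496 in WT differentiated libraries, against 309 and 369 in DKO, 36 and 25 in KO, and 114 and 153 in WT ES libraries. Both KO and both WT differentiated libraries lay above their ES libraries, and the DKO libraries lay on both sides.

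Beside these changes, markers of other cell types stood at unequal levels. The 10 fibroblast and mesenchyme markers summed to 12.6 and 31.5 RPKM at days 8 and 12 in DKO, 33.0 and 172 RPKM in KO, and 591 and 395 RPKM in WT, against 5.85 to 12.4 RPKM over the ES libraries. Postn and Lum were each at 0 in 5 of 6 ES libraries; after differentiation Lum was at 0 in KO day 8 and DKO day 12, and Postn and Prrx1 in DKO day 8. The 4 endothelial markers summed to 15.3 and 10.7 RPKM in DKO, 38.0 and 52.1 RPKM in KO, and 112 and 15.5 RPKM in WT, and the 6 endoderm markers to 32.0 and 409 RPKM in DKO, 21.5 and 302 RPKM in KO, and 195 and 693 RPKM in WT. The libraries with the most reads on the alpha and beta genes, KO day 12 and WT day 8, also had more mesenchyme marker RNA than the other library of their genotype. Across genotypes this order did not hold. WT day 12 had more mesenchyme marker RNA than KO day 12 (395 against 172 RPKM), but fewer reads in the lowest alpha row (81 against 375) and on beta genes (496 against 835). The 8 neuronal markers summed lower in the KO and WT differentiated libraries than in any ES library. They summed to 59.4 and 56.8 RPKM in DKO, 45.7 and 27.6 RPKM in KO, and 7.79 and 9.89 RPKM in WT differentiated libraries. Their sum in ES libraries was 55.1 to 185 RPKM. Tubb3 and Stmn2 made up most of the sum (78.65 and 50.39 of 134 RPKM in WT ES replicate 1). Dcx, at most 0.152 RPKM in any library, was higher after differentiation in KO and WT. The 8 neural progenitor markers summed to 83.3 and 69.6 RPKM in DKO and 35.6 and 39.3 RPKM in KO ES libraries. They summed to 10.11 and 10.05 RPKM in WT ES libraries. After differentiation they summed to 45.3 and 38.9 RPKM in DKO, 24.1 and 27.6 RPKM in KO, and 11.8 and 9.32 RPKM in WT. Few genes carried these sums. Sox1 (64.4 and 54.4 RPKM) and Olig2 (15.0 and 10.9 RPKM) made up most of the DKO ES sum, while Pax6 and Nes were lower in DKO than in WT ES cells. Olig2 (18.9 and 19.4 RPKM) and Nes (12.4 and 15.4 RPKM) made up most of the KO ES sum, while Pax6 was lower than in WT. The part of any of these cell types in the protocadherin values was not tested.

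Between genotypes of differentiated cells, no protocadherin passed by edgeR in the fit of the 6 differentiated libraries. In 1 fit of all 12 libraries, edgeR called all 22 gamma rows, 1 alpha row and 1 beta gene lower in DKO than in WT. In excess reads it called 2 gamma genes higher and 3 lower in DKO than in WT, and 5 lower in KO than in WT. The shares of all genes called in that fit are not given, so these counts are not read further, and the 22 rows repeat the shared exons. In the fit of the 6 differentiated libraries, Pcdhgc3 was at -1.07 ± 0.39 in DKO over WT as a whole row (edgeR adjusted p = 0.15), where 0.674% of 12900 genes fell. By edgeR, 1 gamma row had an unadjusted p under 0.05 there, as had 1 alpha row. DESeq2 called 1 gamma and 1 alpha row lower, beside 14.2% of all genes. In KO over WT Pcdhgc3 was at -0.90 ± 0.39 (adjusted p = 0.26), where 0% of genes were called, and no gamma or alpha row had an unadjusted p under 0.05 by edgeR. DESeq2 called none there, beside 14.2% of all genes. Without WT day 12, differentiated WT is day 8 alone, its library with more alpha and gamma reads, and calls from that fit are not read. No beta gene passed by edgeR (0.819% of all genes were lower in DKO and 0.0363% were called in KO over WT), with 3 of 21 at an unadjusted p under 0.05 in DKO over WT and none in KO over WT, and DESeq2 called 5 lower in DKO, beside 11.3% of all genes, and none in KO. In excess reads no gamma gene passed either, where 2.06% of all genes were called in DKO and 0.0363% in KO. At an unadjusted p under 0.05 there were 4 in DKO and 5 in KO. DESeq2 called 3 lower in KO, beside 4.60% of all genes, and 2 higher with 2 lower in DKO, where it called 18.9%. The smallest adjusted p was that of Pcdhgc5 in DKO over WT (-3.38 ± 0.60, edgeR adjusted p = 0.059). Nor was any member called between day 12 and day 8 by edgeR or DESeq2, where edgeR called 0% and DESeq2 4.36% of all genes, and by edgeR no member had an unadjusted p under 0.05. The order of the days differed between genotypes: Pcdhgc3 excess was higher at day 12 in DKO and in KO and at day 8 in WT.

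The change on differentiation itself differed between DKO and WT. The log2 change of Pcdhgc3 excess in DKO minus that in WT was -2.87 ± 0.43 (SE, edgeR adjusted p = 0.0011). All 22 gamma rows had a lower change in DKO than in WT (median -1.31), where 20.9% of all genes did. Lower is meant by sign, so it includes a fall in DKO beside a rise in WT, and a larger fall. As a whole row Pcdhgc3 was at -1.81 ± 0.40 (edgeR adjusted p = 0.0086). Of the 22 genes in excess reads, 8 had a lower change, beside 13.8% of all genes. They were Pcdhgc3, Pcdhgb6 (-5.48 ± 0.93, edgeR adjusted p = 0.0020), Pcdhga3 (-3.05 ± 0.57, adjusted p = 0.0034), Pcdhga2 (-3.22 ± 0.62, adjusted p = 0.0039), Pcdhga5, Pcdhga10, Pcdhgb5 and Pcdhgb7. Pcdhgb6 shows the pattern: it had 105 and 69 excess reads in differentiated DKO cells and 211 and 243 in DKO ES cells, but 447 and 314 in differentiated WT cells and 25 and 17 in WT ES cells. The Pcdhgc3 call held without any single library, and the count of 8 ranged from 5, without any 1 of the 6 ES libraries, to 12. The whole-row count fell to 1 without either WT ES library, DKO ES replicate 1 or DKO day 8, to 3 without WT day 8, 6 without DKO ES replicate 2, 9 without DKO day 12 and 13 without KO ES replicate 2.

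In the same comparison, 5 of 22 beta genes had a lower change in DKO by sign, where 13.9% of all genes did. Pcdhb22 had 8 and 99 reads in differentiated DKO cells and 85 and 140 in DKO ES cells, against 328 and 128 in differentiated WT cells and 14 and 8 in WT ES cells, a difference of -6.52 ± 1.57 (edgeR adjusted p = 0.014). The others were Pcdhb20, Pcdhb21, Pcdhb11 and Pcdhb16. That count was 1 without WT ES replicate 2 or DKO day 8, 2 without WT ES replicate 1 or either DKO ES library, 3 without DKO day 12 and 11 without WT day 12. Of 14 alpha rows, 5 had a lower change in DKO, where 20.9% of all genes did, with Pcdhac2 at -3.63 ± 1.13 (edgeR adjusted p = 0.032). These rows passed the filter only through WT day 8 and KO day 12. Without the filter, 4 of the 12 rows Pcdha1 to Pcdha12 and 1 of 2 C-type rows were called lower, beside 13.9% of all genes. In excess reads Pcdhac2 alone was called (-4.10 ± 1.33, adjusted p = 0.043). The alpha count was 0 without any 1 of the ES libraries or DKO day 8, 1 without KO day 8, 12 without DKO day 12 and 14 without WT day 12. Each of these contrasts includes the ES level, which was higher in DKO than in WT for most of these members, and the pluripotency and mesenchyme markers given above also differ between these libraries. Their part was not tested.

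The change in KO did not separate from that in WT by edgeR for any whole row or beta gene. By sign, 7.24% of all genes had a lower change in KO (9.80% were called in either direction without the filter). None had an unadjusted p under 0.05 or a call by DESeq2, which called 24.6% of all genes. Pcdhgc3 was at -0.50 ± 0.40 as a whole row (edgeR adjusted p = 0.43) and at -0.20 ± 0.43 in excess reads (adjusted p = 0.88). In excess reads 1 gamma gene, Pcdhgb8, passed, beside 4.29% of all genes. It had 2 and 0 excess reads in differentiated KO cells and 47 and 52 in KO ES cells, against 27 and 19 in differentiated WT cells and 40 and 16 in WT ES cells (-5.33 ± 1.23, edgeR adjusted p = 0.026). The 0 at KO day 12 is fixed by construction, since Pcdhgb8 is the lowest row there, so neither the size nor the call is read further. The call was lost without any 1 of the 6 ES libraries. Without WT day 12, differentiated WT is day 8 alone, and calls from that fit are not read.

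Of 28 measured regulators of the clusters (CTCF, cohesin, DNA methylation and silencing factors), 12 were higher and 8 lower in DKO than in WT, where 32.2% and 31.6% of all genes were, so that these counts are near those of all genes. Dnmt3b, the methyltransferase that methylates protocadherin promoters in early development, stood at 3.15 and 3.60 RPKM in DKO, 32.61 and 31.70 RPKM in KO, and 18.41 and 18.24 RPKM in WT ES cells. Its order of genotypes was thus the reverse of that of gamma and beta RNA, with log2 fold changes of -2.43 ± 0.13 in DKO over WT and 0.85 ± 0.12 in KO over WT (edgeR adjusted p = 2.2e-08 and 0.00011). Setdb1 (-0.76 ± 0.11) and Trim28 (-0.76 ± 0.12), partners in silencing by histone H3 lysine 9 methylation, were lower in DKO than in WT (edgeR adjusted p = 5.8e-05 and 0.00014). Smchd1, which represses the clusters in several tissues, was higher (0.70 ± 0.17, edgeR adjusted p = 0.0034). Wapal, which releases cohesin from DNA, stood at 41.10 and 53.42 RPKM in DKO, 23.07 and 20.96 RPKM in KO, and 35.91 and 33.80 RPKM in WT ES cells, the same order as gamma RNA. Ctcf was 0.56 ± 0.12 higher in DKO than in KO (edgeR adjusted p = 0.0016), and did not pass against WT. Across differentiation Dnmt3b did not keep to this order, at 21.30 and 33.88 RPKM in DKO, 50.20 and 20.66 RPKM in KO, and 10.28 and 9.71 RPKM in WT libraries. The part of these genes in the protocadherin values was not tested.

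Of 16 tested partners in protocadherin signalling, 8 were higher and 2 lower in DKO than in WT ES cells, where 32.2% and 31.6% of all genes were. In KO over WT 3 were higher and 5 lower, beside 23.5% and 19.2% of all genes. Psen2, a catalytic subunit of the gamma-secretase that cuts protocadherins, stood at 19.15 and 17.53 RPKM in DKO, 2.25 and 2.06 RPKM in KO, and 2.96 and 2.21 RPKM in WT ES cells. The kinase gene Ptk2b, whose product Pyk2 is inhibited by alpha and gamma protocadherins, was 2.34 lower on the log2 scale in DKO than in WT. Of the 4 tested fat, dachsous and Celsr cadherins 2 were higher in DKO than in WT, and of the 4 tested classical cadherins 2 were higher and 2 lower, beside the same 32.2% and 31.6% of all genes.

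Of the protocadherins outside the clusters, only Pcdh1 passed the filter in ES cells, at 2.21 and 2.20 RPKM in DKO, 0.93 and 1.32 RPKM in KO, and 2.92 and 2.37 RPKM in WT. It was 1.19 lower on the log2 scale in KO than in WT (SE 0.20, edgeR adjusted p = 0.0005), and DKO and WT did not separate by the test. On differentiation 5 of 6 tested genes rose, beside 20.1% of all genes. Apart from Pcdh1, the tested genes reached 1 RPKM only in differentiated libraries, so they passed the filter where they are high. That count is therefore not read further. Among the genes that rose were Pcdh1 (2.90 ± 0.22, edgeR adjusted p = 0.00025) and Pcdh18 (5.61 ± 1.19, adjusted p = 0.0068).

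Of 17 tested neighbours of the clusters, 4 were higher and 6 lower in DKO than in WT ES cells, beside 32.2% and 31.6% of all genes. In KO over WT 1 was higher and 6 lower, beside 23.5% and 19.2%. Wdr55 and Hars, before the alpha cluster, were 1.72 and 1.27 lower on the log2 scale in DKO than in WT, and Diap1, after the gamma cluster, was 0.88 lower. Of the genes lying among the clusters, Taf7, a subunit of the general transcription factor TFIID, stood at 36.08 and 33.68 RPKM in DKO, 28.02 and 24.14 RPKM in KO, and 29.38 and 27.60 RPKM in WT ES cells (DKO over WT 0.30 ± 0.11, edgeR adjusted p = 0.035). Slc25a2, a mitochondrial ornithine carrier gene, was at 0.75 and 0.92 RPKM in DKO, 0.33 and 0.29 RPKM in KO, and 0.40 and 0.28 RPKM in WT (DKO over WT 1.28 ± 0.49 without the filter, edgeR adjusted p = 0.028). The other 284 tested genes of chromosome 18 had a median log2 fold change of 0.16 in DKO over WT and -0.08 in KO over WT.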

How the data were processed

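RNA-seq of 12 mouse libraries was analysed from the authors' tables. Bowtie2 and the mouse build mm9 are named in the submitters' processing notes, with no version. The counting program, its use of strand and its handling of reads that map to several places are not given in the sources used here, so reads on near-identical beta and gamma exons may be split or lost. The tables deposited by the authors give whole-number read counts and an RPKM for each of 29257 RefSeq transcript models. The RPKM that the authors deposited divides counts by model length and by a library total. Matching against an annotation was used for gene order and constant exons only, and no coordinates or sequences are given.

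The longest model of each of 22878 symbols was kept, and members were taken by symbol. Excess reads are a row's reads minus the lowest row of its cluster in that library. edgeR 4.0.16 (quasi-likelihood, TMM scaling, R 4.3.3) was the main test, with Benjamini-Hochberg adjustment over all genes tested and a threshold of 0.05; a standard error comes from the fold change and its F statistic. A gene entered a fit when 2 or more of its libraries reached 1 RPKM. Because no beta gene passed that filter, beta genes, alpha genes in ES cells and excess reads were tested without it, an alternative chosen after seeing the data. ES comparisons used the 6 ES libraries, comparisons within differentiated cells used 6 libraries with day, and the change on differentiation and its differences between genotypes used all 12. DESeq2 1.42.0, limma 3.58.1 on log2(RPKM + 1), other scaling, a replicate block, 1 fit of all libraries, the most-read model and leaving out each library were alternatives. The tests were tested on simulated data. Floors of 3 reads per library replace groups with no reads, and cover counting error only. Python 3.11.15 with pandas 2.3.3, numpy 2.4.6, scipy 1.17.1 and matplotlib 3.10.9 was used for tables and plots.

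Depth was 22542052 to 26677968 reads in genes per library. Named genes were the C-type members, the 3 members of each cluster with the highest mean RPKM and, per cluster and comparison, up to 4 called members with the smallest adjusted p. From each other list up to 4 called genes were taken, and genes named beyond this were chosen after their values were seen. The members and lists were chosen with earlier results of these data known.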

Additional observations from a re-analysis of the deposited data

Results flagged for a closer look

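The results below are differences between genotypes in the change on differentiation, each with an edgeR test of the difference itself and an adjusted p under 0.05. They are given as log2 changes in DKO minus those in WT unless stated otherwise. For whole rows they were Pcdhgc3 (-1.81), Pcdhgb6 (-1.40), Pcdhga2 (-1.35), Pcdhgb5 (-1.33), Pcdhgc5 (-1.32) and Pcdhgc4 (-1.30) in the gamma cluster, which share their constant exons. In the alpha cluster they were Pcdhac2 (-3.63), Pcdha1 (-3.56), Pcdha11 (-3.46) and Pcdha5 (-3.41), again with shared exons.

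Among the beta genes, Pcdhb22 (-6.52), Pcdhb20 (edgeR adjusted p = 0.0055), Pcdhb21 (adjusted p = 0.021) and Pcdhb11 (adjusted p = 0.026) had a lower change in DKO by sign. The WT ES libraries of the last 3 genes hold no reads, so no size is given. In excess reads the differences were Pcdhgb6 (-5.48), Pcdhac2 (-4.10), Pcdhga2 (-3.22), Pcdhga3 (-3.05) and Pcdhgc3 (-2.87). For KO minus WT, Pcdhgb8 (-5.33) was the only excess value past the threshold. Its excess at KO day 12 is 0 by construction, since it is the lowest row there, so that value and call are not read further.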

How the results depend on the processing

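Excess reads in place of whole rows turned the called direction of Pcdhgb4 in DKO over WT ES cells (0.33 as a whole row, called lower in excess with a 0 by construction) and of Pcdhga1 (0.66 and -1.44) and Pcdhgb8 (0.70, called lower in excess) in differentiated over ES cells. No other alternative reversed a reported result. Of 200 alternatives for counts of called members other than leaving out a library, 153 stayed within 1.5 times the reported count and 47 moved further. Of 1116 alternatives for single genes, 843 kept their side of the threshold and 273 lost it. Where no cause follows from the construction of the alternative, the cause was not tested.

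In 1 fit of all 12 libraries, whole gamma rows called were 0 (KO over WT ES), 0 (DKO over WT ES), 1 (DKO over KO ES) and 22 (DKO over WT differentiated). The shares of all genes called in that fit are not given. In that fit, gamma genes called by excess were 3 (KO over WT ES), 9 (DKO over WT ES), 5 (KO over WT differentiated) and 5 (DKO over WT differentiated). Beta counts were 0 (KO over WT ES), 4 (DKO over KO ES) and 1 (DKO over WT differentiated), and alpha rows were 0, 0 and 1 in KO over WT ES, DKO over WT ES and DKO over WT differentiated. Alpha excess counts were 0, 1 and 3 in KO over WT, DKO over WT and DKO over KO ES cells.

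With DESeq2, alpha rows called were 1 (KO over WT ES), 7 (DKO over WT ES), 1 (DKO over WT differentiated), 14 (differentiated over ES) and 14 (DKO minus WT change). Alpha excess counts were 0 (KO over WT ES) and 3 (DKO over WT ES). Gamma counts in differentiated cells were 1 row in DKO over WT, and by excess 3 in KO over WT and 4 in DKO over WT, and by excess 10 changed in differentiated over ES cells. Beta counts were 5 (DKO over WT differentiated) and 8 (differentiated over ES). With limma, 9 gamma rows passed in DKO over WT ES, beta counts were 2 (KO over WT ES), 5 (DKO over WT ES) and 3 (DKO minus WT change), and alpha counts were 1 (DKO over KO ES), 0 (differentiated over ES) and 0 (DKO minus WT change).

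In excess reads in place of whole rows, gamma counts were 11 (KO over WT ES), 6 (differentiated over ES), 1 (KO minus WT change) and 10 (DKO minus WT change), and alpha counts were 1 in each of the last 3. The 10 differs from the 8 in the report, since the filter on low values stays in place here. Without the filter, 21 gamma rows passed in KO over WT ES and 3 alpha rows in differentiated over ES cells.

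Leaving out 1 library at a time moved whole gamma rows called to 0 to 22 (KO over WT ES), 1 to 22 (DKO over WT ES), 0 to 22 (DKO over WT differentiated), 0 to 22 (differentiated over ES), 0 to 22 (KO minus WT change) and 1 to 22 (DKO minus WT change). Gamma excess counts moved over 2 to 10 (differentiated over ES), 0 to 3 (KO minus WT change) and 5 to 12 (DKO minus WT change). Beta counts moved over 3 to 6 (KO over WT ES), 5 to 8 (DKO over KO ES), 0 to 8 (differentiated over ES), 0 to 1 (KO minus WT change) and 1 to 11 (DKO minus WT change). Alpha rows moved over 0 to 8 (KO over WT ES), 1 to 11 (DKO over WT ES), 0 to 14 (DKO over WT differentiated), 0 to 14 (differentiated over ES), 0 to 14 (KO minus WT change) and 0 to 14 (DKO minus WT change). Alpha excess counts moved over 0 to 2, 2 to 5 and 3 to 9 in the KO over WT, DKO over WT and DKO over KO ES comparisons.

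Same-numbered ES replicates did not deviate together over all genes (correlations of -0.006 for KO and WT, -0.056 for DKO and WT and -0.104 for DKO and KO over 12046 genes). A shared effect on few genes would not show in these values, so they cannot exclude a pairing. With a replicate block, the alpha count in KO over WT ES was 2, and the other counts stayed within 1.5 times. At this depth a beta gene with few reads in every library cannot show a change. Leaving out a library left 1 library of its genotype and stage, so counts from those fits show only how far the calls depend on single libraries.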

Other observations

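A further model, Pcdha4-g, of 2856 bases, is no member by symbol. It held 764 and 679 reads in DKO, 390 and 505 in KO, and 551 and 577 in WT ES libraries, far above the alpha rows and in the order of the gamma cluster. At days 8 and 12 it held 634 and 906 reads in DKO, 635 and 1234 in KO, and 1594 and 1141 in WT.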
